A study of Rattus norvegicus with 18 samples.

Results

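Complement is a cascade of plasma and tissue proteins that tags particles and cells for removal, and its classical branch starts when C1 binds an antibody or a damaged surface. C1 is built from C1q, the recognition unit, and the proteases C1r and C1s, which cut C4 and C2 to form the enzyme that cleaves C3, the component on which all branches converge. In the retina these components are made locally, C1q largely by microglia and macrophages and C3 and C4 by several cell types, and complement activity is known for its part in age-related macular degeneration. The 10 genes described here are this classical branch and C3, namely C1qa, C1qb, C1qc, C1r, C1s, C1rl, C2, C4a, C4b and C3. They were taken by symbol out of 32285 genes in the retina count table and 32552 in the RPE/choroid table (RPE, retinal pigment epithelium), where C4a carried the name LOC103689965. All 10 were found in both tissues.

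Bulk RNA-seq libraries were made from neural retina and from RPE/choroid of wild-type female Fischer 344 rats, an inbred strain whose retina degenerates with age. Young rats were 4 months old by the labels and untreated. Aged rats were 24 months old and drank plain water, and 8-AG rats were aged rats of 24 months that had received 8-aminoguanine (8-AG), an endogenous inhibitor of purine nucleoside phosphorylase, in drinking water at 5 mg/kg body weight per day from 22 months for 8 weeks. Each tissue has 3 libraries of each group, 18 in all. The RPE/choroid was collected by washing the eye cup, so its libraries can hold RPE, choroid and residual retina.

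Retina libraries held 12283458 to 15644346 counts and RPE/choroid libraries 28573828 to 48203050. The 8-AG retina libraries are labelled as total RNA and all other libraries as polyA RNA, whereas the protocol names polyA capture for all retina libraries. A different polyA preparation, enriched for full-length transcripts, was used for RPE/choroid, so levels were never tested between the tissues. In RPE/choroid, young libraries 1 and 2 share one label number, as do aged libraries 1 and 2, with the letters L and R. The labels do not say that the libraries of a group came from separate animals, so p-values measure the spread between these libraries. In CPM, counts scaled to a common library total, the summed rod markers ranged from 538 to 49998 in RPE/choroid, where 8-AG library 1 held the 49998 against 753 and 773 in the other 8-AG libraries. That library also had 5411 CPM of RPE markers, against 8973 to 17940 in the other 8 RPE/choroid libraries. In retina the RPE markers summed to 21.8 to 335 CPM, and the rod markers to 30489 to 54694 CPM. In bulk tissue, fewer cells of a type and less RNA per cell cannot be told apart.

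In the current rat assembly (GRCr8) the C1q chain genes are neighbours on chromosome 5, and C1rl, C1r and C1s are neighbours on chromosome 4. C2 lies beside Cfb on chromosome 20, which also holds C4a and C4b, and C3 is on chromosome 9. Promoter windows of 300 bases, 250 before and 50 after the start of the gene, were found for 7 of the 10 genes in RefSeq's GRCr8 set, not for C1qc, C1s or C2. The windows of C4a and C4b are shown first because the copies are so alike that read counts of this pair are uncertain. They were identical at 280 of 309 aligned columns (90.6%), against 47.1% to 54.1% for the other pairs of windows. Capitals mark the bases that are not identical between them, 20 in each.
C4a, chr20:4010107-4010406, plus strand: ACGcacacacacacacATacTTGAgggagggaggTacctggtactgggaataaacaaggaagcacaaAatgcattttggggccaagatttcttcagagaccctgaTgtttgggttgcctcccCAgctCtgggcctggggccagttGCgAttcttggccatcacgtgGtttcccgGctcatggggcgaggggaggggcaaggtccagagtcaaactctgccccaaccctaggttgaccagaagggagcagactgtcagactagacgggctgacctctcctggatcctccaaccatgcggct
C4b, chr20:4201729-4202028, plus strand: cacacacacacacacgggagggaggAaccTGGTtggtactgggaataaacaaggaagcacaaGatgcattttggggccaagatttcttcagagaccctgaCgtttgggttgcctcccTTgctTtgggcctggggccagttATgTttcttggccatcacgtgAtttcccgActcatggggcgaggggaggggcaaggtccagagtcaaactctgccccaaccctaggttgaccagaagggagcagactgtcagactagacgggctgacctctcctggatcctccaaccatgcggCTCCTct

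The windows of C1qa, C1qb, C1r and C3 are shown because these genes rose together with age in retina. Motifs for factors known from microglia and interferon signalling were searched on both strands, and capitals mark the matches.
C1qa, chr5:154419884-154420183, minus strand: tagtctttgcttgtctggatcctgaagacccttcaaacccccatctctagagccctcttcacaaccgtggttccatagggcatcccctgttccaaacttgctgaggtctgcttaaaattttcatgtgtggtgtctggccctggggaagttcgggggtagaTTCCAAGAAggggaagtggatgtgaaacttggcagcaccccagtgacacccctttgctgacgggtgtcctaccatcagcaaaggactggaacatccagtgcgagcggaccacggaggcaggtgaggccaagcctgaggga
C1qb, chr5:154407778-154408077, minus strand: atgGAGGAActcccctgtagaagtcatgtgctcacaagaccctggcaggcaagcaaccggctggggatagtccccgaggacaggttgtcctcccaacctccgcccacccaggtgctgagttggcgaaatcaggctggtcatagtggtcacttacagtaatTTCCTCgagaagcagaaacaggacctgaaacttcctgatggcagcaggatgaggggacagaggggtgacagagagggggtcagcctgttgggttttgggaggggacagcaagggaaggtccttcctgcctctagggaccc
C1r, chr4:159098763-159099062, plus strand: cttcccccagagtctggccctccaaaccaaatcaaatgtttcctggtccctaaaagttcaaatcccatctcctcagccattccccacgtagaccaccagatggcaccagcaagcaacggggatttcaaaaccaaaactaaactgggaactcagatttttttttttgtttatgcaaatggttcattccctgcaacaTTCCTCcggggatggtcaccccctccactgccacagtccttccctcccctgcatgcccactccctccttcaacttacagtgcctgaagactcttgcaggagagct
C3, chr9:2201290-2201589, minus strand: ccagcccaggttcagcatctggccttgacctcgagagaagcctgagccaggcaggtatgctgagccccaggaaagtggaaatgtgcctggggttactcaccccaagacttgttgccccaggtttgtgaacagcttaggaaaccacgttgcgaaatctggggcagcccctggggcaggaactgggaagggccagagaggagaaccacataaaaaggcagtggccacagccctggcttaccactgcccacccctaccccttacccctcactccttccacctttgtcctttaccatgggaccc

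The STAT-type motif TTCNNNGAA was in 1 of the 7 windows, C1qa, where it begins 90 bases before the start, and in 8.87% of 33469 promoter windows of the genome. GAGGAA, the core of the PU.1 type, was in 3 of 7 (C1qb, C1r and C4b) and in 27.6% of all windows. The interferon-stimulated response element core, a pair of GAAA units 2 bases apart, was in 0 of 7 and in 3.92% of all windows, and the classical NF-kB consensus site in 0 of 7 and in 0.111%. The matches are letters in the window and say nothing of binding.

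All 10 genes were higher in aged than in young retina, and the lowest aged library lay above the highest young library for each of them. A gene was called where its levels differed by more than 1.5-fold and P was under 0.05 before adjustment, which is the study's own rule, and edgeR's quasi-likelihood test called 10 of 10 higher. The same rule called 6.44% of the 14586 genes tested higher. All 10 also had a Benjamini-Hochberg adjusted p under 0.05, as had 7.28% of genes in that direction. With the replicate number as a block in the fit, the adjusted p of C4b was 0.0883 by edgeR. The median log2 fold change of the 10 was 2.53, against 0.002 over all genes tested, and a complete separation upwards was found for 18% of genes. The filter on low counts removed none of the 10.

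**Figure D1:**
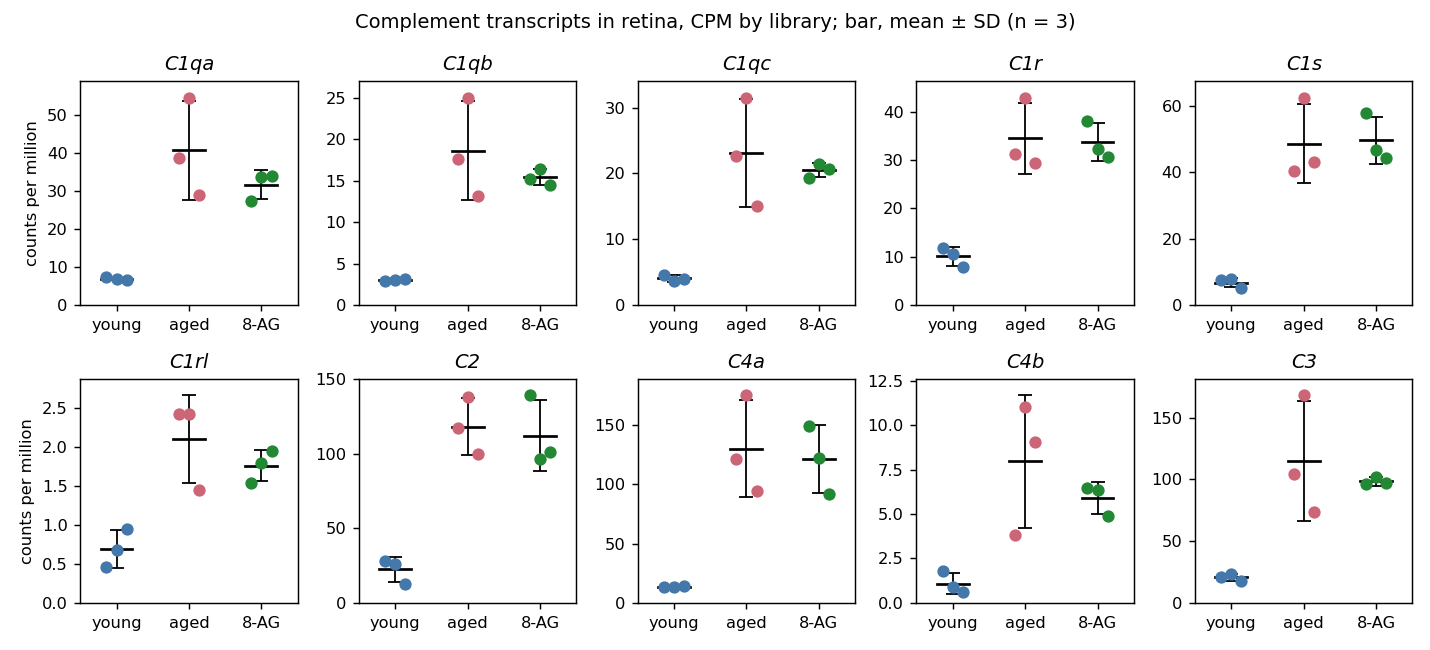
Each panel plots one gene in retina, with CPM on the y axis and the group on the x axis. Points are the 3 libraries of a group and bars give the mean ± SD. The aged and 8-AG libraries lie above the young libraries in every panel, and aged and 8-AG libraries overlap in every panel.

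C1qa, C1qb and C1qc encode the chains that together form C1q. The young retina libraries held 7.32, 6.77 and 6.62 CPM of C1qa, a mean of 6.9 ± 0.367 (SD, n = 3). The aged libraries held 38.6, 54.6 and 29.1 CPM, a mean of 40.7 ± 12.9. Library 2 was the highest of the aged libraries and all 3 stood clear of the young ones, with a log2 fold change of 2.56 (SE 0.25) and an adjusted p of 0.00203 by edgeR. C1qb went from 2.93, 3.08 and 3.17 CPM to 17.6, 25 and 13.2 CPM, a log2 fold change of 2.6 (SE 0.24) with an adjusted p of 0.000427. C1qc went from 4.62, 3.61 and 4.05 to 22.6, 31.5 and 15.1 CPM, a log2 fold change of 2.5 (SE 0.29). Each chain thus ranked the aged libraries in one order, library 2 above 1 above 3. The ratio of C1qb to C1qa within a library was 0.400, 0.456 and 0.480 in young and 0.457, 0.458 and 0.454 in aged retina, so the chains kept their proportions while their levels differed. Transcript lengths were not used, so these ratios of counts are not ratios of molecules.

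C1r and C1s encode the proteases of C1. C1r activates itself and then C1s, which cuts C4 and C2. C1r held 11.8, 10.6 and 7.97 CPM in young and 31.2, 42.9 and 29.4 CPM in aged retina, and its log2 fold change was 1.77 (SE 0.19) with an adjusted p of 0.00145. C1s held 7.47, 7.82 and 5.13 CPM in young and 40.3, 62.4 and 43 CPM in aged libraries. Its log2 fold change was 2.84 (SE 0.24), with an adjusted p of 0.00102 by edgeR. The difference between the changes of these neighbouring genes was not tested. The ratio of C1s to C1r was 0.634, 0.738 and 0.644 in young, 1.29, 1.45 and 1.46 in aged and 1.52, 1.45 and 1.45 in 8-AG retina. Young libraries stood apart from both other groups in this ratio, which was chosen after its values were seen. C1rl, a C1r-like protease gene, had few reads, 0.462, 0.677 and 0.945 CPM or 6, 9 and 14 counts in young libraries, against 2.42, 2.42 and 1.45 CPM in aged ones. Its log2 fold change was 1.57 (SE 0.36), the lowest of the 10.

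C4 and C2 supply the parts of the classical C3 convertase. The copy C4a had the largest log2 fold change of the 10. It held 13.8, 13.6 and 14 CPM in young and 121, 175 and 94.7 CPM in aged retina, and its log2 fold change was 3.24 (SE 0.27) with an adjusted p of 0.00248 by edgeR. The young libraries lay within 1.03-fold of each other. C4b had few reads, at 1.77, 0.903 and 0.608 CPM in young and 3.82, 11 and 9.05 CPM in aged libraries, with a log2 fold change of 2.88 (SE 0.53). The deposited retina counts of C4a, C4b and C2 are fractional, as RSEM shares out reads that fit several genes, and the split between C4a and C4b is uncertain. C2 held 28.3, 26.2 and 12.8 CPM in young and 117, 138 and 99.7 CPM in aged retina, and its log2 fold change was 2.4 (SE 0.34) with an adjusted p of 0.0163. Young library 3 was the lowest for C2. The authors' symbol table adds 2 identifiers under C2, and with the identifier ENSRNOG00000051235 alone, an alternative added after seeing the data, the log2 fold change was 1.78 (SE 0.38).

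C3 is cut by the convertase, and its fragments coat surfaces and signal to receptors. The young retina libraries held 21.1, 23.2 and 17.8 CPM and the aged libraries 104, 168 and 73.2 CPM. Again library 2 was the highest of the aged libraries. The log2 fold change was 2.48 (SE 0.38) with an adjusted p of 0.0202 by edgeR. Without aged library 2 it was 2.1. Leaving out any single library kept 10 of 10 genes called higher, while the number with an adjusted p under 0.05 by edgeR fell to between 6 (without young library 2) and 10.

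Markers of microglia and macrophages moved in the same libraries. The 12 markers summed to 41.4 to 45.0 CPM in young, 111 to 185 CPM in aged and 121 to 136 CPM in 8-AG retina, and all 10 that passed the filter were called higher with age, with a median log2 fold change of 1.92. Aged library 2 was the highest for this sum too. The C1q chains summed to 0.299 to 0.336 of the marker sum in young and 0.515 to 0.609 in aged libraries, so their levels relative to the markers lay higher in every aged library. C1s went from 0.124 to 0.174 of the marker sum in young to 0.312 to 0.386 in aged libraries, and C4a from 0.303 to 0.338 to between 0.849 and 0.943. With the mean marker level as a covariate, chosen after seeing the data, 4 of the 10 were still called higher (C1qa 1.02, C1qb 1.09, C1s 1.66 and C4a 1.77), and of these C4a alone had an adjusted p under 0.05 by edgeR (0.0272). The log2 fold changes not called were 1.85 (SE 1.34) for C4b, 1.21 (SE 0.84) for C2, 0.82 (SE 1.02) for C1rl, 0.76 (SE 0.40) for C1qc, 0.63 (SE 0.31) for C1r and 0.33 (SE 0.19) for C3. Marker level and age separated the same libraries, so in that fit they cannot be told apart. The share of all genes called in that fit is not given here. Gfap, a marker of reactive Mueller glia and astrocytes, rose by 3.52 (SE 0.40) on the log2 scale, while the sum of all 8 glial markers was 4279 to 4557 CPM in young and 4208 to 4310 in aged retina. All 9 interferon response genes tested were called higher, and 6 of 9 rod markers lower, where the rule called 2.39% of all genes lower. The summed erythrocyte markers were 23.6 to 41.7 CPM in young and 76.3 to 361 CPM in aged retina, and lens markers 142 to 6011 and 13.5 to 19.4 CPM. The part of these cells in the complement values was not tested.

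No complement gene of the 10 was called between 8-AG and aged retina. The rule called 0 of 10 with edgeR, 0 of 10 had an unadjusted P under 0.05, and DESeq2 also called 0. Of 14629 genes tested the rule called 0.957% in either direction, 3.68% had an unadjusted P under 0.05, and 3 genes (0.0205%) were higher at an adjusted p under 0.05. The 8-AG and aged libraries overlapped for all 10, whereas 4.81% of genes separated upwards and 3.96% downwards. The log2 fold changes ran from -0.45 to 0.02 with a median of -0.21, and 1 of the 10 lay above 0, against 49% of all genes. Every adjusted p was 0.996. In the same comparison 9 of 9 interferon response genes lay below 0 with 2 called lower, 9 of 12 microglia and macrophage markers lay below 0 with 0 called, and 3 of 3 surface epithelium markers were called higher, and their part was not tested.

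C1qa held 27.4, 33.8 and 33.9 CPM in the 8-AG libraries, with library 1 just under the lowest aged library and the other two among them, and its log2 fold change from aged was -0.37 (SE 0.23), with a 95% interval of -0.90 to 0.17. C1qb held 15.2, 16.4 and 14.5 CPM and C1qc 19.3, 21.4 and 20.7 CPM, with log2 fold changes of -0.28 (SE 0.21) and -0.18 (SE 0.24). All 3 chains leaned below 0 without passing the test, and they turned on single aged libraries. Without aged library 2 the values were -0.09, 0 and 0.12. Without aged library 3 they were -0.56, -0.48 and -0.41, each with an unadjusted P under 0.05 and less than 1.5-fold, and so not called. C1r was at 38.1, 32.3 and 30.7 CPM and C1s at 57.7, 46.7 and 44.4 CPM, and their intervals, -0.38 to 0.30 and -0.39 to 0.44, were the narrowest with that of C2, -0.48 to 0.32. A fold change over 1.5, which is 0.585 on the log2 scale, lies outside all 3 intervals. For C2 this holds for the summed identifiers, while ENSRNOG00000051235 alone had an interval of -0.85 to 0.92. For C4a (149, 122 and 91.4 CPM) the interval was -0.82 to 0.59, and for C3 (96, 102 and 97.1 CPM) it was -1.01 to 0.54, so the interval reached past that size in both directions for C4a and downwards for C3. C4b had the lowest estimate, -0.45 (SE 0.35), from 6.48, 6.35 and 4.88 CPM. Without aged library 1 it was -0.77 and was called lower, the 1 call that leaving out a library made.

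**Figure D2:**
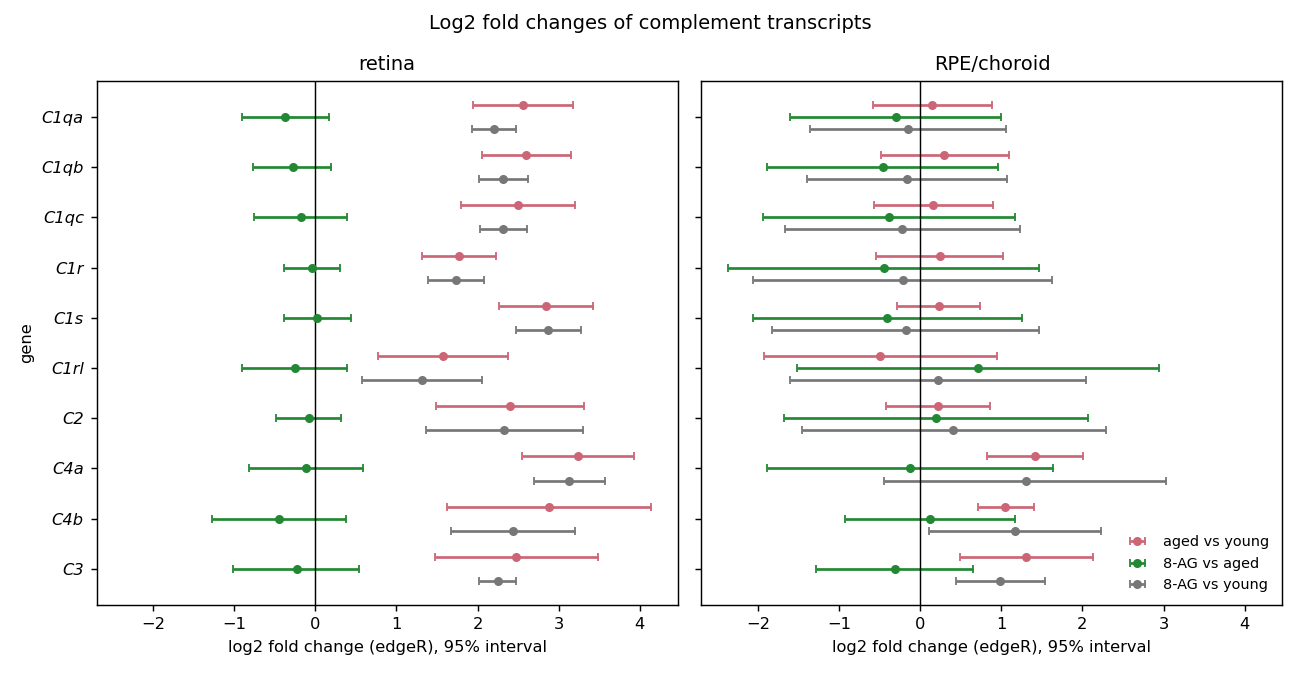
Points give the log2 fold change of each gene (y axis) in retina and in RPE/choroid, and lines the 95% interval from edgeR. In retina both comparisons with young lie to the right of 0 for all 10 genes and 8-AG against aged lies between -0.45 and 0.02. In RPE/choroid only C4a, C4b and C3 of aged against young, and C4b and C3 of 8-AG against young, exclude 0. The intervals there are wider than in retina for both 8-AG comparisons. For aged against young those of C1s, C2, C4a, C4b and C3 are narrower than in retina and the others wider.

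Against young retina, the 8-AG libraries were higher for 10 of 10 genes by the rule and at an adjusted p under 0.05, where 6.49% and 7.77% of 14540 genes were. The adjusted p of C1rl was 0.122 by DESeq2, that of C2 was 0.0554 by edgeR with single identifiers, and leaving out a library kept 8 to 10 of the 10 under 0.05. The groups separated for all 10, as for 17.8% of genes. These comparisons share the young libraries with those of aged retina, so they are not separate evidence. C4a was at 3.13 (SE 0.19), C1s at 2.87 (SE 0.17) and C3 at 2.25 (SE 0.10). C1rl was lowest with 1.32 (SE 0.33). The spread among 8-AG libraries was small for some genes. C3 spanned 1.07-fold among the 8-AG libraries and 2.30-fold among the aged ones, and C1qc 1.11-fold and 2.09-fold, which was not tested. In the same comparison all 12 microglia and macrophage markers, 9 of 9 interferon response genes and 2 of 8 glial markers, Gfap and Apoe, were called higher. Surface epithelium markers summed to 1.15 to 2.93 CPM in young and 8.57 to 20.2 CPM in 8-AG retina, with 3 of 3 tested called higher, and RPE markers to 21.8 to 136 and 154 to 335 CPM, with 1 of 8 called higher. Both erythrocyte markers tested were called higher, and 2 of 9 rod markers lower. The part of these cells in the complement values was not tested. The order of complement levels in retina was therefore young below both aged groups, with aged and 8-AG not told apart.

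Of 39 other complement genes on the list, 18 were tested between aged and young retina, and 7 were called higher and 0 lower, where the rule called 6.44% of all genes higher. Of those tested, 4 of 6 classical and fluid regulators, 2 of 2 receptors and 1 of 3 lectin genes were called. The inhibitor of C1r and C1s, Serping1, was at 12.3, 11.3 and 7.63 CPM in young and 60, 101 and 59.9 CPM in aged retina, and its log2 fold change was 2.83 (SE 0.32). It rose in the same comparison as the proteases it inhibits. Cfi, the protease that inactivates C3b and C4b, was nearly unread in young libraries, at 0 to 0.154 CPM, and at 1.31 to 1.53 CPM in aged ones. Clusterin, Clu, an inhibitor of the terminal complex, rose by 1.28 (SE 0.19). Among receptors, C3ar1, the receptor of the C3a fragment, rose by 1.23 (SE 0.33), and Itgb2, a subunit of the C3 fragment receptors of leukocytes, by 1.94 (SE 0.29). The scavenger receptor collectin Colec12 rose by 0.95 (SE 0.27). None was called of the alternative branch (1 of 3 tested), of the 5 membrane regulators tested or of the terminal components (1 of 7 tested). The other genes of the alternative branch failed the filter. Of the 7 terminal genes 4 were found in the retina counts, and most of these failed the filter. C5, which the C5 convertase cuts, was at 0 to 0.276 CPM in all 9 retina libraries. Between 8-AG and aged retina 1 of 23 tested was called, Cd55, a membrane inhibitor of the convertases, from 0.702, 1.4 and 0.691 to 2.32, 1.87 and 1.47 CPM (log2 fold change 0.98, SE 0.36, adjusted p 0.996 by edgeR).

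Genes with the most similar pattern were found by the root mean square difference of log2 CPM, each gene centred on its mean over the 9 retina libraries, among 14540 genes. For C1qa they were C1qb (0.12), C1qc (0.12) and C3 (0.15), against a spread of 1.13 of C1qa around its own mean. For C3 they were the C1q chains, at 0.14 to 0.15. C1s was nearest to Serping1 (0.07), Tlr2 (0.15) and Ifitm3 (0.20). C4a was nearest to Gfap (0.22), Tlr2 (0.22) and Bcl3 (0.26). So C1q and C3 shared one pattern and C1s and C4a lay closer to other genes, which is a description over 9 libraries of 3 groups.

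In RPE/choroid fewer of the 10 genes were called with age. C4a, C4b and C3 were called higher in aged than in young libraries, and C1qa, C1qb, C1qc, C1r, C1s, C1rl and C2 were not called. The 3 of 10 compare with 0.717% of 16047 genes called higher by the rule. None of the 10 had an adjusted p under 0.05 by edgeR, as was the case for all genes (0%), and 2.13% of genes had an unadjusted P under 0.05. In 1 fit with all 3 groups, C4a was no longer called (1.42, P 0.0545 by edgeR). DESeq2 called the same 3 genes, and its adjusted p was under 0.05 for C4a and C4b, at 0.00536 and 0.000632. For C3 it was 0.246. In data simulated from these libraries, the rule found 63% of 200 genes changed 2-fold, and an adjusted p under 0.05 found 0%.

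**Figure D3:**
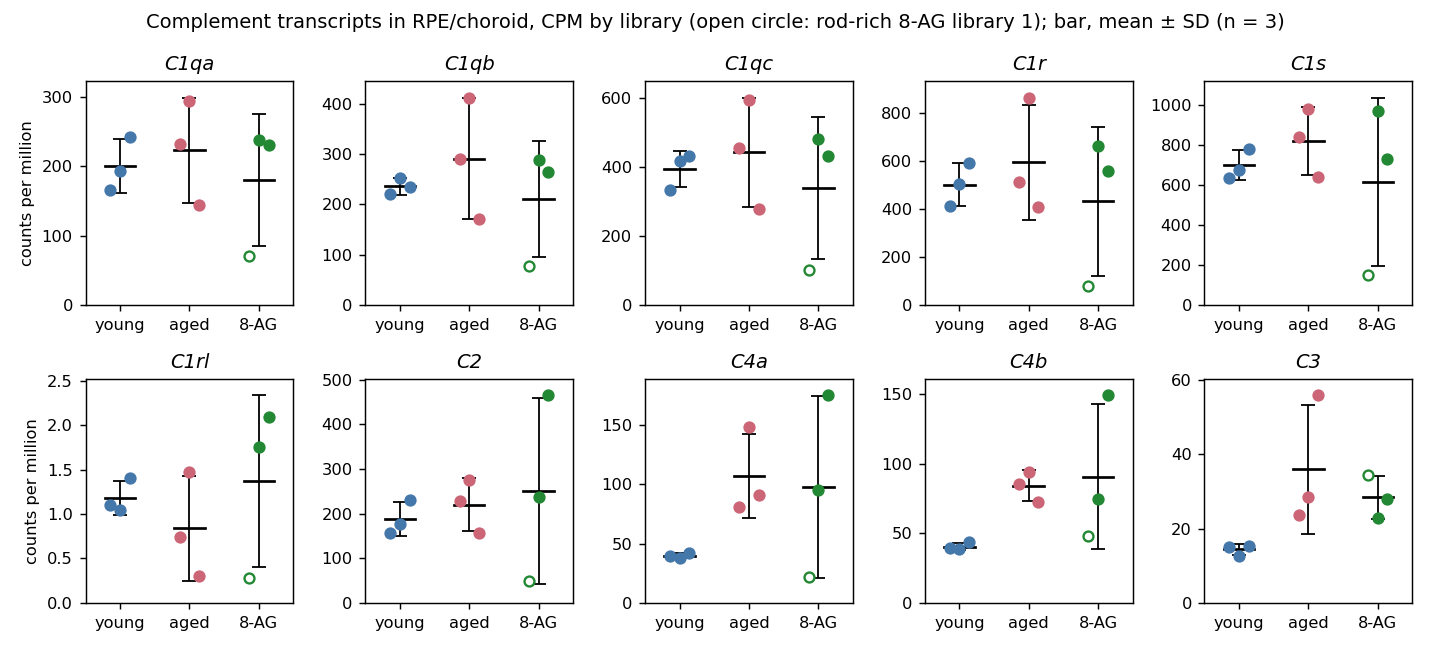
Each panel plots one gene in RPE/choroid, with CPM on the y axis and the group on the x axis. Points are the 3 libraries of a group, bars give the mean ± SD, and the open circle is 8-AG library 1, which held 49998 CPM of rod markers. Aged libraries lie above young ones for C4a, C4b and C3, and the open circle is the lowest 8-AG value in every panel but that of C3.

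C4a held 39.5, 37.8 and 42 CPM in young and 81.2, 148 and 91.2 CPM in aged RPE/choroid. C4b held 39.2, 38.6 and 43.4 CPM and 85.7, 94.2 and 72.3 CPM. In both cases the young libraries were close together and every aged library lay above them, with log2 fold changes of 1.42 (SE 0.24) and 1.05 (SE 0.14), unadjusted P of 0.00109 and 0.000288, and an adjusted p of 1 by edgeR. C4b to C4a was 0.992, 1.02 and 1.03 in young RPE/choroid, where the counts of the copies were nearly equal, and 0.0435 to 0.128 in young retina. The tissues were counted separately, and how reads shared by the copies were treated in RPE/choroid is not given in the sources used here. C3 held 15, 12.7 and 15.4 CPM in young and 23.6, 28.5 and 55.9 CPM in aged libraries, and aged library 3 was the highest. Its log2 fold change was 1.31 (SE 0.34) with an unadjusted P of 0.00765 and an adjusted p of 1 by edgeR, and 0.86 without aged library 3. A separation upwards of aged from young was found for 2.97% of all genes. In the same libraries neutrophil markers summed to 7.95 to 12.9 CPM in young and 15 to 27.2 CPM in aged, with 3 of 4 tested called higher, and endothelial markers to 2258 to 3262 and 1510 to 2094 CPM. Erythrocyte markers summed to 235 to 3273 CPM in young and 157 to 220 CPM in aged, with 3 of 3 tested called lower, and 2 of 5 lens markers tested were called lower. The 8 glial markers overlapped, at 7032 to 8321 and 7841 to 9569 CPM, with 1 of 8 called, Gfap, which rose by 4.20 (SE 0.91) on the log2 scale. The part of these cells in C4a, C4b and C3 was not tested.

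The C1q chains were at 144 to 594 CPM in aged and 166 to 432 CPM in young RPE/choroid, and the groups overlapped for all 3. C1qa held 166, 193 and 242 CPM in young and 232, 294 and 144 CPM in aged libraries, and its log2 fold change was 0.15 (SE 0.30), with an interval of -0.58 to 0.88. The microglia and macrophage markers overlapped likewise, at 1071 to 1636 CPM in young and 1197 to 1833 CPM in aged libraries, and 0 of 12 were called. C1s held 636, 675 and 780 CPM in young and 840, 977 and 641 CPM in aged libraries (log2 fold change 0.23 (SE 0.21), interval -0.29 to 0.74). C1r held 413, 504 and 592 CPM and 512, 865 and 410 CPM. C1s to C1r did not separate the groups here, at 1.13 to 1.88 over all 9 libraries. C2 had 157, 177 and 230 CPM in young and 228, 275 and 156 CPM in aged libraries, all from ENSRNOG00000051235, and its second identifier had 0 counts in every RPE/choroid library. C1rl had few reads in this tissue too, at 0.28 to 2.09 CPM over the 9 libraries. Of 39 other complement genes 30 were tested in RPE/choroid, and 0 were called in any of the 3 comparisons.

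The difference between the tissues was tested with an interaction term on the young and aged libraries of both. This fit shares a spread between the tissues. The common dispersion, edgeR's measure of spread between libraries, was 0.0147 in retina and 0.195 in RPE/choroid fitted alone, and 0.111 in the joint fit. The SE and p-values of the differences rest on that sharing. The aging change was larger in retina for 10 of 10 genes by the rule, which called 5.43% of 16790 genes in that direction. At an adjusted p under 0.05 edgeR kept C1s alone, with a difference of 2.62 (SE 0.33) and an adjusted p of 0.0362. By edgeR 0.155% of genes passed in that direction. DESeq2 kept 6 of the 10, and its share over all genes is not given here. With RLE scaling the adjusted p of C1s was 0.065, with a replicate block 0.275, and leaving out 1 library at a time gave 0.0401 to 0.124. C1qa followed with 2.42 (SE 0.41) and an adjusted p of 0.0505. The smallest difference was that of C3, 1.18 (SE 0.49), with an interval of 0.10 to 2.26, and leaving out any one of 7 of the 12 libraries ended its call. C4a and C4b, which were called in both tissues, differed by 1.83 (SE 0.36) and 1.84 (SE 0.55). Reads shared by these copies may have been counted in unlike ways in the tissues, so these differences may compare unlike quantities. For C2 the retina value sums 2 identifiers, of which only ENSRNOG00000051235 had counts in RPE/choroid, so its difference of 2.19 (SE 0.44) sets unlike quantities against each other, and the difference for that identifier alone was not tested. Of the microglia and macrophage markers 11 of 12 were called in the same direction, as were 9 of 9 interferon response genes, 3 of 3 erythrocyte and 3 of 5 endothelial markers, while 5 of 6 lens markers were called in the opposite one. Their part in the complement differences was not tested.

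Between 8-AG and aged RPE/choroid, 0 of the 10 genes were called by edgeR, 0 had an unadjusted P under 0.05, and DESeq2 called 0. Of 16257 genes the rule called 1.65% in either direction and 1.69% had an unadjusted P under 0.05. The groups overlapped for all 10, whereas 2.1% of genes separated upwards and 1.86% downwards. In data simulated from these libraries the rule found 30% of 200 genes changed 2-fold, so most changes of that size would not have been called here. In the same comparison 7 of 9 interferon response genes tested were called higher, as were 4 of 4 surface epithelium and 4 of 6 lens markers. 8-AG library 1 was the lowest 8-AG library for 9 of the 10 genes. C1qa held 70.7, 238 and 230 CPM, C1r 80.9, 662 and 558 CPM and C1s 152, 967 and 728 CPM. The same library had 388 CPM of microglia and macrophage markers, against 1581 and 1525 in libraries 2 and 3, 1096 CPM of fibroblast markers, against 9465 and 7959, and 1038 CPM of surface epithelium markers, against 3.58 and 219. C4a held 22.1, 95.5 and 175 CPM, C4b 48.1, 74.9 and 149 CPM and C2 49.1, 237 and 465 CPM, so library 3 was the highest for these. C3 was the exception, at 34.4, 23 and 27.9 CPM. With all libraries the log2 fold changes from aged ran from -0.46 (C1qb) to 0.71 (C1rl), and the interval for C1qa was -1.61 to 1.0. Without 8-AG library 1 the estimates were 0.07 for C1qa, -0.08 for C1qb, 0.04 for C1qc, 0.03 for C1r, 0.05 for C1s, 0.34 for C4a, 0.41 for C4b, 0.68 for C2, 1.19 for C1rl and -0.50 for C3, again with 0 called. With a rod score as a covariate 2 were called lower, C1qb (-0.73) and C1r (-1.06), with an adjusted p of 0.634 each by edgeR. The share of all genes called with the rod score is not given here.

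Against young RPE/choroid, C4b and C3 were called higher in 8-AG libraries, 2 of 10 where 1.71% of 16215 genes were. These were also the genes whose groups separated, as for 2.82% of all genes. In the same comparison 4 of 4 surface epithelium markers, 4 of 9 interferon response genes and 1 of 8 glial markers, Gfap (3.03, SE 1.13), were called higher, and their part was not tested. The log2 fold changes were 1.17 (SE 0.43) and 0.99 (SE 0.22), each with an adjusted p of 1 by edgeR, where 0% of genes passed 0.05, and DESeq2 gave C3 an adjusted p of 0.0344. For C4a the estimate was 1.3 (SE 0.70) with an interval of -0.44 to 3.03. Without 8-AG library 1, C4a was at 1.78, C4b at 1.48, C2 at 0.91 and C3 at 0.83, and 4 genes were called higher. C4b was no longer called without any one of the young libraries, without 8-AG library 3, with the libraries that share a label number summed (1.14, P 0.0977 by edgeR) or with a replicate block (1.02, P 0.0511 by edgeR). With the rod score as a covariate C4b (0.84) and C3 (1.03) were called higher, and C4a was at 0.38. In that fit C1qa (-0.67), C1qc (-0.92), C1r (-1.26) and C1s (-1.02) were called lower, with adjusted p of 0.179 to 0.206 by edgeR. The shares of all genes called without 8-AG library 1 and with the rod score are not given here. Between the tissues, the change from aged to 8-AG differed for 0 of the 10 by edgeR and by DESeq2, with differences of -0.97 (C1rl) to 0.43 (C1s) and 2.32% of 16913 genes called.

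The patterns of the members in RPE/choroid had other nearest genes, again by the root mean square difference over 9 libraries, among 16475 genes. C1qa was nearest to Prrt1, Ap1g2 and Slc50a1 (0.09 to 0.10), against a spread of 0.58 of its own. C1s was nearest to S100b, Casp4 and Ugcg (0.09 to 0.11). C3 was nearest to Gsta1, Hsd17b13 and Nme5 (0.26 to 0.29), and C4a to Ltbp2, AABR07035561.2 and Btnl10 (0.32 to 0.36). No C1q chain was among the 3 nearest genes of C1qa or C3 here. The chains still moved together. Over the 9 libraries C1qb to C1qa was 0.968 to 1.4 and C1qc to C1qa 1.45 to 2.16, while C1qa ranged from 70.7 to 294 CPM.

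**Figure D4:**
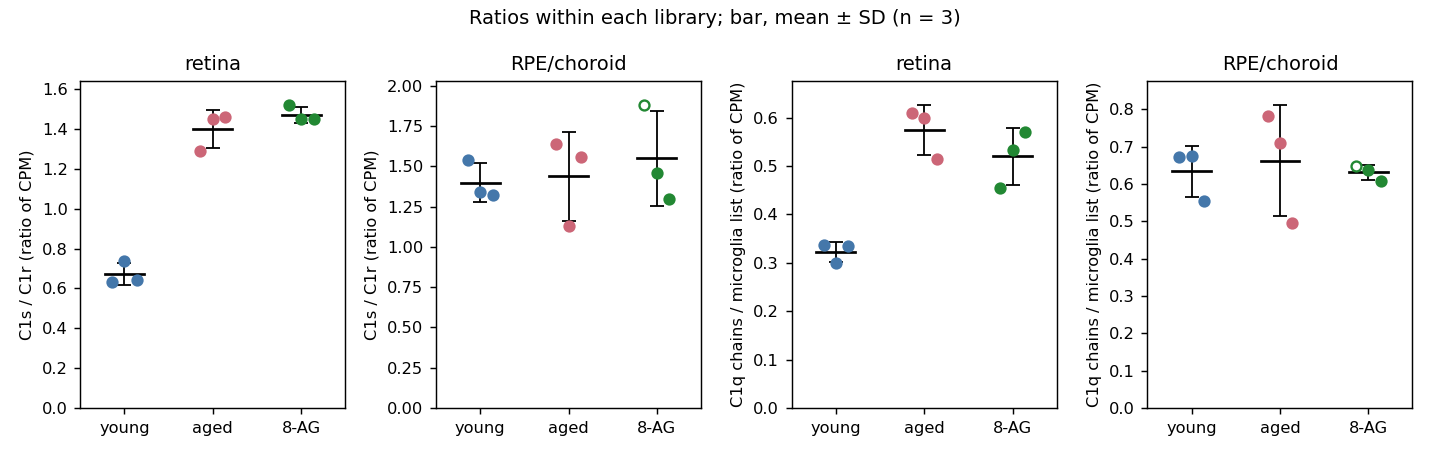
The first pair of panels plots the ratio of C1s to C1r within each library in retina and in RPE/choroid, and the last pair the summed C1q chains divided by the summed microglia and macrophage markers. Points are libraries, bars give the mean ± SD, and the open circle is 8-AG library 1 of RPE/choroid. In retina the young libraries lie below both other groups in both ratios, at 0.634 to 0.738 and 0.299 to 0.336, and in RPE/choroid the groups overlap.

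In RPE/choroid the C1q chains summed to 0.496 to 0.783 of the microglia and macrophage markers over all 9 libraries, with no separation of the groups. 8-AG library 1, low for the chains, stood at 0.649 in this ratio, beside 0.637 and 0.608 in the other 8-AG libraries. C4a was at 0.0257 to 0.0369 of the marker sum in young and 0.065 to 0.0805 in aged libraries, and C3 at 0.0094 to 0.014 and 0.0156 to 0.0467. Relative to the markers, C4a and C3 therefore lay higher in all aged than in all young libraries of both tissues, and the C1q chains did so in retina. A list of markers shares libraries and RNA with the genes it is set against, and these ratios were not tested.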

How the data were processed

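For retina the authors deposited RSEM expected counts by gene, not normalized. Of these values 11.5% were not whole, and all were rounded. For RPE/choroid they deposited raw counts. The submitters' processing notes name Bowtie2 2.1.0, RSEM 1.2.15, edgeR and Rnor_6.0, without roles. The RPE/choroid counting program is not given in the sources used here. A TMM-normalized signal table deposited by the authors served for symbols and 1 alternative. The authors' comparison tables hold fold changes and p-values, which were not used. The authors' symbol table sums 2 identifiers for C2 and for C4a, and these sums were used.

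The members and lists were chosen with earlier results of these data known. All members are named. Other complement genes are named where called, except 1 that is not reported here, and the 3 nearest genes of C1qa, C1s, C3 and C4a by a fixed rule. Each comparison used its own 6 libraries in edgeR 4.0.16 (R 4.3.3): filterByExpr, TMM, glmQLFit with robust=TRUE, glmQLFTest, Benjamini-Hochberg over all genes. The tissue differences used an interaction term, with a spread shared by both tissues. Alternatives were RLE factors, DESeq2 1.42.0, other filters, all groups in 1 fit, a replicate block, robust=FALSE, limma 3.58.1 on log2(value + 0.5), summed libraries, a rod score, single identifiers, a microglia score and leaving out each library. Replicate numbers did not pair libraries. The fits were tested on simulated data; in retina aged vs young 94% of 2-fold changes were recovered by the rule. Exact permutation of 3 against 3 libraries cannot go below p = 0.1. CPM use TMM library sizes.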

Additional observations from a re-analysis of the deposited data

Results flagged for a closer look

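C1s was the single complement gene of the 10 whose aging change differed between the tissues at an adjusted p under 0.05 by edgeR. DESeq2 had 6 of the 10 under it, with its share over all genes not given here. The difference of the log2 fold changes, retina minus RPE/choroid, was 2.62 (SE 0.33, adjusted p 0.0362 by edgeR's interaction term). It was higher in 3 of 3 aged retina libraries than in any young one, while in RPE/choroid the groups overlapped. It was picked out because the tissues' changes were tested against each other. Leaving out any 1 library kept the difference between 2.39 and 2.77, with an adjusted p of 0.0401 to 0.124, and RLE scaling gave 2.61 with an adjusted p of 0.065. With a replicate block the difference was 2.63 with an adjusted p of 0.275 by edgeR. The tissues were prepared and counted separately. Preparation and counting therefore cannot be told apart from tissue, in level or in the difference of the changes. The fit also shares a spread between the tissues.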

How the results depend on the processing

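Calls in retina against young kept their side under RLE, DESeq2, other filters, a joint fit, the replicate block, limma and each left-out library for all members tested (8 passed a minimum of 10 counts in every library), and the microglia and macrophage score left 4 called in aged against young. In retina 8-AG vs aged, leaving out a library gave 0 to 1 calls. In RPE/choroid 8-AG vs aged the rod score gave 2. Shares of all genes called are given for the default fits only, so counts under alternatives have no background beside them. In RPE/choroid 8-AG vs young the replicate block gave 1 and summed libraries 1, both without C4b, the rod score gave 6 (2 higher, 4 lower), and leaving out a library gave 1 to 4. The block also took C4b below the threshold in the aging difference (1.8, P 0.0513 by edgeR). The replicate numbers do not pair the libraries, since correlations of same-numbered libraries ran from -0.252 to 0.219 in retina and from -0.577 to 0.648 in RPE/choroid.

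Signs turned for estimates that were not called with all libraries in the default fit. In retina 8-AG vs aged C2 was 0.04 by single identifiers and C1r 0.01 with the microglia score. In RPE/choroid aged vs young, summed libraries gave C1qa -0.08 and C1qc -0.03. In RPE/choroid 8-AG vs aged C2 was -0.26 with the block and -0.43 with the rod score, and C4b -0.03 and -0.05. Against young C1rl was -0.12 and -0.69, and C2 -0.04 and -0.6. In the tissue difference of the 8-AG change C4a was -0.01 under RLE, DESeq2, no filter and the minimum of 10 counts, and the block gave C1qa 0.1 and C2 0.18. Ranges over left-out libraries crossed 0 as follows. In retina 8-AG vs aged they were -0.1 to 0.25 for C1s, -0.41 to 0.12 for C1qc, -0.15 to 0.15 for C1r, -0.26 to 0.05 for C2, -0.3 to 0.16 for C4a and -0.47 to 0.15 for C3. In RPE/choroid aged vs young they were -0.1 to 0.4 for C1qa, -0.03 to 0.58 for C1qb, -0.11 to 0.42 for C1qc and -0.13 to 0.46 for C1r. In RPE/choroid 8-AG vs aged they were -0.86 to 0.34 for C4a, -0.62 to 0.68 for C2, -0.55 to 0.14 for C3, -0.56 to 0.07 for C1qa, -0.72 to 0.04 for C1qc, -0.89 to 0.03 for C1r, -0.89 to 0.05 for C1s and -0.45 to 0.41 for C4b. In RPE/choroid 8-AG vs young they were -0.39 to 0.23 for C1qa, -0.44 to 0.23 for C1qb, -0.54 to 0.22 for C1qc, -0.64 to 0.28 for C1r, -0.65 to 0.29 for C1s, -0.22 to 0.7 for C1rl and -0.39 to 0.91 for C2. In the tissue difference of the 8-AG change they were -0.46 to 0.74 for C4a, -0.45 to 0.22 for C1qa, -0.21 to 0.51 for C1qb, -0.23 to 0.57 for C1qc, -0.3 to 0.48 for C3, -0.08 to 0.87 for C1r, -0.03 to 0.93 for C1s, -0.76 to 0.54 for C2 and -0.89 to 0 for C4b. The cause of these moves was not tested. C1rl and C4b had 6 to 14 and 9 to 23 counts in the young retina libraries, so their fold changes rest on few counts.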

Other observations

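The identifiers summed under one symbol had their own values in retina. Of the C2 counts 70.1% came from ENSRNOG00000051158 and 29.9% from ENSRNOG00000051235. The first had a mean of 12.9 ± 5.2 CPM in young, 85.5 ± 8.96 in aged and 78.6 ± 11.2 in 8-AG retina, and the second 9.53 ± 3.44, 32.6 ± 10.2 and 33.6 ± 13.5 (SD, n = 3). Their log2 fold changes with age were 2.74 (SE 0.33) and 1.78 (SE 0.38), a difference that was not tested. In RPE/choroid the first had 0 counts in all 9 libraries and the second 1581 to 21322. Of the C4a counts in retina 97.4% came from ENSRNOG00000000443.

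The proportion of C3 to C4a counts differed between young and aged retina. The ratio of C3 to C4a in counts was 1.53, 1.71 and 1.27 in young, 0.861, 0.963 and 0.773 in aged and 0.646, 0.838 and 1.06 in 8-AG libraries, so every young library lay above every other. The ratio of C3 to C1qa overlapped across the groups, at 2.52 to 3.5 over all 9 libraries. In RPE/choroid C3 to C4a was 0.380, 0.336 and 0.366 in young and 0.291, 0.193 and 0.613 in aged libraries, and C3 to C1qa was 0.0636 to 0.487. The ratio of C1qc to C1qa in retina was 0.704, 0.634 and 0.610 in 8-AG and 0.586, 0.578 and 0.520 in aged libraries, without overlap, and overlapped with young. These ratios were chosen after their values were seen and were not tested.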
